A study of Homo sapiens with 4 samples.

Results

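A group of 7 oncofetal genes was followed in T24 cells, a line established from a human bladder carcinoma: the mRNA-binding protein genes IGF2BP1, IGF2BP2 and IGF2BP3, the let-7 precursor-binding protein genes LIN28A and LIN28B, and the chromatin protein genes HMGA1 and HMGA2. The members were taken by gene symbol, and all 7 were found among the 60623 genes of the deposited table. The series compared 2 libraries of control T24 cells with 2 libraries of T24 cells overexpressing CBX7, a chromobox protein of polycomb repressive complex 1 that binds trimethylated lysine 27 of histone H3. All cells were grown in RPMI with 10% FCS, and the study's methods describe full-length CBX7 in a pCDH-3xFLAG vector for stable overexpression, with no statement on how many clones or cultures the libraries came from. The p-values therefore measure the spread between these libraries, which may be technical. An expected count (an estimated number of reads, which need not be whole) and a TPM value (a level scaled by gene length and library) were deposited per gene and library.

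Of the 7 genes, 5 were expressed in T24 cells with and without CBX7, and the 2 LIN28 genes were at or under 1 count in all 4 libraries. HMGA1 stood at 887 to 1066 TPM, 15.3 to 19.1 times the level of IGF2BP2, the next member, in the same library. None of the 5 expressed genes passed an adjusted p of 0.05 between CBX7-overexpressing and control cells, where 0.0202% of all genes tested did, so that the count says nothing particular about the members. Their log2 fold changes lay between -0.11 and 0.08 as fitted on condition alone and between -0.27 and 0.22 after a correction for gene length and GC content, and leaving out 1 library moved IGF2BP3 between -0.27 and 0.37. For each of the 5 the CBX7 libraries differed from each other, on the scale of normalized counts, by more than the groups did.

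All 7 proteins are known as oncofetal: they are abundant in embryonic or fetal tissue and found again in many tumours, and most of them are low in adult tissues, IGF2BP2 being more widely kept. They are tied together by the let-7 microRNAs, which base-pair through their seed with the 3′ UTR of target mRNAs and lower them. LIN28A and LIN28B bind the let-7 precursors and block their maturation, while HMGA2, IGF2BP1 and the LIN28 genes themselves are classical let-7 targets. The IGF2BP proteins bind mRNAs, among them IGF2, MYC and ACTB mRNA, and hold them in the cytoplasm, stabilise them or read their N6-methyladenosine marks. The HMGA proteins bend AT-rich DNA through AT-hooks and give transcription factors access to chromatin.

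The mature let-7 sequences are shown because the motif search below rests on their common seed. They were copied from RefSeq on GRCh38.p14, from 5′ to 3′, with the seed (bases 2 to 8) in capitals. All 12 entries found there, for let-7a, let-7b, let-7c, let-7d, let-7e, let-7f, let-7g, let-7i and miR-98, had the seed GAGGUAG, and the 4 sequences printed differ only outside it.
hsa-let-7a-5p: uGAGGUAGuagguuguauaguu
hsa-let-7b-5p: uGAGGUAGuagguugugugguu
hsa-let-7g-5p: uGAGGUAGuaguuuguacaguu
hsa-miR-98-5p: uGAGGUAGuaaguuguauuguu

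A match to the seed (CTACCTC, the strand of the transcript only) was searched in the 3′ UTR of 1 coding transcript per gene in GENCODE release 29 on GRCh38. The longer match CTACCTCA, with an A opposite base 1 of the microRNA, contains the shorter one. With the transcript of the longest coding sequence, 6 of the 7 members held at least 1 match, against 1563 of 18845 coding genes with a 3′ UTR, or 8.29%. The members were chosen as genes that let-7 regulates, so the choice itself favours a match, and the shares were not matched for 3′ UTR length, whose median was 2754 bases in tested genes with a match and 878 in those without. IGF2BP1 held 4 matches in 6206 bases of 3′ UTR, 3 of them with the A, a number reached or exceeded by 10 of the 18845 genes (0.0531%). For HMGA2 the number depended on the transcript. The one with the longest coding sequence ends in another 3′ UTR of 533 bases with 0 matches, and ENST00000403681.6, with 3003 bases of 3′ UTR, holds 4. When each gene was given its transcript with the most matches, a choice made after seeing the data, all 7 members held a match, against 1991 of 18845 genes (10.6%), and IGF2BP1, LIN28B and HMGA2 held 4 each, while 13 of the 18845 genes (0.0690%) held at least 4.

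A site of each member is printed from GENCODE on GRCh38, with the match in capitals, to show what was counted. A match is a description of the letters and not a measured site.
IGF2BP1 (chr17:49051055-49051083, plus strand): caatgctgtgtgcgaagtaaaCTACCTCA
IGF2BP2 (chr3:185644220-185644248, minus strand): gagaaaaacacacagaagaagCTACCTCA
IGF2BP3 (chr7:23311795-23311823, minus strand): taaacgtgcatttttactcaaCTACCTCA
LIN28A (chr1:26427342-26427370, plus strand): tggagtgcacagcctattgaaCTACCTCA
LIN28B (chr6:105078806-105078834, plus strand): tcctttacccggttgcaaagtCTACCTCA
HMGA1 (chr6:34245823-34245851, plus strand): catttttcctctgttcacaaaCTACCTCt
HMGA2 (chr12:65963293-65963320, plus strand): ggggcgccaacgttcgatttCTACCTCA
Of these 7 sites, that of HMGA1 is the only one without the A.

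The expected counts summed to between 20800910 and 25135488 per library, and a count of 0 allowed up to 3 counts, or 0.119 to 0.144 CPM (counts scaled to library size), which covers counting error only. CBX7 itself was 163-fold higher in the CBX7 libraries (expected counts of 261 and 203 against 42852 and 35641; log2 fold change 7.35, standard error 0.18, adjusted p = 0.000584 by edgeR's quasi-likelihood test), so the labels matched the overexpressed gene. The epithelial markers KRT7, KRT8 and KRT18 were high, at 853 to 1465 TPM, while CDH1 was at most 0.03 TPM. Of the 9 urothelial markers only PPARG exceeded 1 TPM in every library, and KRT5 was at 0. Among the other epithelial markers EPCAM lay at 0.58 to 1.78 TPM. KRT19 had 7.64 and 6.64 TPM in control cells, against 17.3 and 15.1 with CBX7 (adjusted p = 0.352, edgeR). The mesenchymal markers VIM, CDH2 and FN1 summed to 3357 and 3327 TPM in control cells, against 2495 and 2592 TPM with CBX7. Most of that sum was VIM, at 2757 and 2726 against 2206 and 2228 TPM. In CPM the VIM groups overlapped, at 3515 and 3329 against 3335 and 2680 (adjusted p = 0.951, edgeR). The CDH2 groups overlapped in TPM and not in CPM (adjusted p = 0.951, edgeR). FN1 had 550 and 545 against 255 and 311 TPM (adjusted p = 0.597, edgeR). On the TPM scale, 17.4% of the 14862 genes tested had both CBX7 libraries below both control libraries. The part of these markers in the members' values was not tested. Of the pluripotent and germ cell markers, DAZL and DDX4 were at 0 and the sum of all 6 lay between 4.32 and 9.73 TPM. CBX7 replicate 1 stood apart: its ratio to control replicate 1 fell with gene length (Spearman's rho of -0.62 across 11077 genes, a description), as did the ratio of control replicate 1 to control replicate 2 (-0.49), and the CBX7 libraries differed from each other with a chi-square per degree of freedom of 59.7, against 6.49 for the control libraries. Values corrected for each library's trend with length and GC content are given for the members and for many of the other genes named.

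IGF2BP2 (ENSG00000073792, chromosome 3 from 185643739 to 185825056, minus strand, GRCh38 as for all members), whose protein binds mRNAs of metabolism and growth, was the main member of its family in these cells. Its level was 58.2 and 65.6 TPM in control replicates 1 and 2, and 46.4 and 61.5 TPM in CBX7 replicates 1 and 2. CBX7 replicate 1 was the lowest of the 4, and the groups overlapped. IGF2BP2 made up 65.3% to 69.0% of the summed IGF2BP TPM in every library.

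IGF2BP3 (ENSG00000136231, minus strand of chromosome 7 from 23310209 to 23470467), known as a marker of many carcinomas, had 16.9 and 17.2 TPM in control cells, against 12.6 and 18.2 TPM with CBX7. The 2 CBX7 libraries lay on either side of the control libraries. Its share of the family was 17.9% to 19.8%. The coding gene MALSU1 overlaps IGF2BP3 on the opposite strand and had expected counts of 542 to 1080, and since no source states whether strand was used in counting, reads of the shared bases cannot be told apart.

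IGF2BP1 (ENSG00000159217, plus strand of chromosome 17 from 48997412 to 49055650), the zipcode-binding protein that holds ACTB and MYC mRNA, had 10.5 and 13.0 TPM in control cells, against 8.26 and 14.5 TPM with CBX7. CBX7 replicate 1 was the lowest and CBX7 replicate 2 the highest of the 4. IGF2BP1 made up 12.2% to 15.4% of the family TPM.

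LIN28A (ENSG00000131914, plus strand of chromosome 1 from 26410778 to 26429722) was at 1 expected count in control replicate 2 and at 0 elsewhere. LIN28B (ENSG00000187772, plus strand of chromosome 6 from 104936616 to 105083332) had a count of 0 in all 4. The limit that a count of 0 allows (0.119 to 0.144 CPM) holds for LIN28B in all 4 libraries and for LIN28A in 3, and the single LIN28A count stands for 0.0476 CPM. Neither let-7 precursor-binding gene passed the filter on low counts, and no fold change is given. LIN28B-AS1, which overlaps LIN28B on the opposite strand, and the 2 pseudogene copies of LIN28A also had 0 counts.

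HMGA1 (ENSG00000137309, plus strand of chromosome 6 from 34236873 to 34246231) ranked 155 of 60623 genes by its mean TPM over the 4 libraries. It had 1050 and 1066 TPM in control cells, against 887 and 943 TPM with CBX7. On this scale both CBX7 libraries lay below both control libraries, as they did for 17.4% of the 14862 genes tested, and the median of those genes shifted by -0.08 on the log2(TPM + 1) scale. On the scale of TMM-normalized counts, HMGA1 had 1382 and 1350 CPM in control cells, against 1378 and 1160 CPM with CBX7, and the groups overlapped. The 8 HMGA1 pseudogenes held 5 counts over all libraries, or 0.00415% of the 120494 counts on HMGA1.

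HMGA2 (ENSG00000149948, plus strand of chromosome 12 from 65824131 to 65966295), a classical let-7 target, had 46.1 and 55.1 TPM in control cells, against 35.1 and 55.1 TPM with CBX7. CBX7 replicate 1 was again the lowest and the groups overlapped. Its antisense neighbour RPSAP52, a transcribed pseudogene, was at 126 and 76.1 counts in control cells, against 115 and 95 with CBX7, and HMGA2-AS1 had 8.49 to 13 in the 4 libraries. The deposited length of HMGA2, 1788 bases, equals that of the transcript whose 3′ UTR holds no let-7 match. The length implied by its count per TPM was 3027 to 3162 bases in the 4 libraries, between those 1788 bases and the 4473 bases of ENST00000403681.6. Genes with a single annotated transcript gave ratios of implied to deposited length from 0.607 to 1.86 (5th to 95th percentile), HMGA2 exceeded the 95th percentile in 1 of 4 libraries, and the lengths bear on the transcript in use only loosely.

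**Figure D1:**
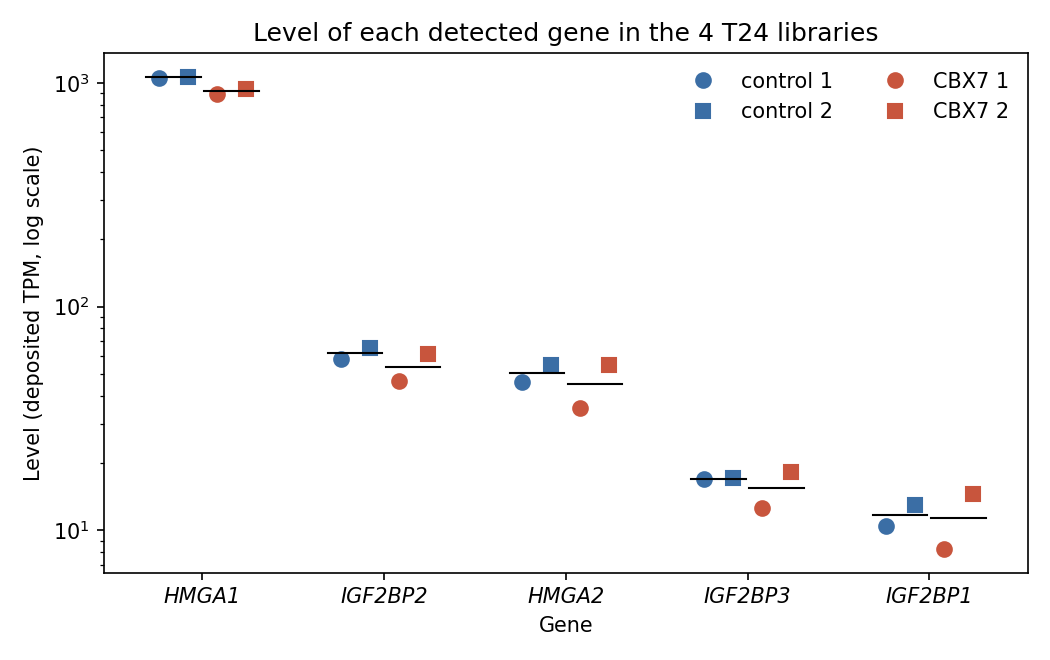
Deposited TPM (log axis) of the 5 members detected in T24 cells, in 2 control libraries (blue) and 2 CBX7 libraries (red), with circles for replicate 1, squares for replicate 2 and black lines for group means. HMGA1 lies between 887 and 1066 TPM, far above the others, and CBX7 replicate 1 is the lowest library for all 5 genes; LIN28A and LIN28B, at 0 to 0.02 TPM, are not drawn.

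Ordered by mean TPM, the members ran HMGA1 (986), IGF2BP2 (57.9), HMGA2 (47.8), IGF2BP3 (16.2) and IGF2BP1 (11.5). The steps from HMGA1 to IGF2BP2 and from HMGA2 to IGF2BP3 were larger than the range over libraries. The ranges of IGF2BP2 and HMGA2 overlapped, and so did those of IGF2BP3 and IGF2BP1. Within each of the 4 libraries the former of each pair was higher in TPM. These orders and the ratios below rest on the lengths behind the deposited TPM. The count per TPM implied 2264 to 3027 bases for IGF2BP3 (4274 deposited) and 3027 to 3162 for HMGA2 (1788 deposited). Whether the order within each pair holds at the deposited lengths was not tested. The ratio of HMGA1 to HMGA2 was 17.1 to 25.3, that of IGF2BP2 to IGF2BP3 was 3.39 to 3.82 and that of IGF2BP3 to IGF2BP1 was 1.25 to 1.62. The HMGA1 share of the summed HMGA TPM was 94.5% to 96.2%. In bulk RNA, fewer expressing cells and less RNA per cell cannot be told apart.

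The comparison of CBX7-overexpressing with control cells asked whether raised CBX7 goes with a change in these genes. In the quasi-likelihood test of edgeR (Benjamini-Hochberg adjusted), 0 of the 5 members tested passed an adjusted p of 0.05, against 3 of 14862 genes (0.0202%). At an unadjusted p under 0.05 there were also 0 of 5, against 4.74% of all genes tested. DESeq2's Wald test and limma on log2 TPM called 0 of the 5 as well. Without CBX7 replicate 2 alone, HMGA2 passed (log2 fold change -0.26, adjusted p = 0.0449, edgeR), in a fit that called 35.5% of the genes tested. On the CPM scale the groups overlapped in all 5 members, while they did not overlap for 30.2% of the genes tested (14.8% with the CBX7 libraries lower). An exact permutation test, two-sided, of 1 member alone has 0.333 as its smallest p with 2 libraries per group, and the p-values given rest on the spread estimated across genes.

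The fold changes were small and their intervals were wide enough to leave modest changes undetected. For IGF2BP2 the log2 fold change was -0.01 (standard error 0.13, 95% interval -0.33 to 0.30, adjusted p = 0.989, edgeR), so that a fold outside 0.798 to 1.23 lies beyond the interval. For HMGA1 it was -0.11 (standard error 0.14, 95% interval -0.46 to 0.24, adjusted p = 0.951, edgeR). For HMGA2 it was -0.06 (standard error 0.17, 95% interval -0.49 to 0.38, adjusted p = 0.958, edgeR). These 3 genes, at 128, 1317 and 118 CPM as a mean of the libraries, had the narrower intervals. For IGF2BP1 the log2 fold change was 0.07 (standard error 0.20, 95% interval -0.42 to 0.56, adjusted p = 0.956, edgeR). For IGF2BP3 it was 0.08 (standard error 0.23, 95% interval -0.49 to 0.65, adjusted p = 0.956, edgeR). For none of the 5 did the interval reach a 2-fold change in either direction.

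The spread came mainly from the CBX7 libraries. On the log2 CPM scale, CBX7 replicate 2 exceeded CBX7 replicate 1 by 0.63 in IGF2BP3, 0.47 in IGF2BP1, 0.39 in HMGA2 and 0.10 in IGF2BP2, and the difference was -0.25 in HMGA1. Between the control libraries the corresponding differences were 0.07, 0.19, 0.14, 0.00 and -0.03. The gap was larger between the CBX7 libraries in all 5 members.

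Taken by replicate number, the log2 ratio of CBX7 to control was -0.08 and 0.19 in IGF2BP1, -0.06 and 0.04 in IGF2BP2, and -0.23 and 0.33 in IGF2BP3. It was -0.19 and 0.05 in HMGA2, and 0.00 and -0.22 in HMGA1. All 3 IGF2BP genes and HMGA2 thus had opposite signs in the 2 ratios. The fitted replicate 1 ratio of genes of the same length and GC content was -0.34 at IGF2BP1, the longest member (8796 bases deposited). It was -0.18 at IGF2BP3 and -0.07 at IGF2BP2, but 0.28 at HMGA1 and 0.20 at HMGA2, with 1920 and 1788 bases deposited. The value at HMGA2 rests on its deposited length, while its count per TPM implied 3027 to 3162 bases. In replicate 2 that trend was between -0.02 and 0.04 at all 5.

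**Figure D2:**
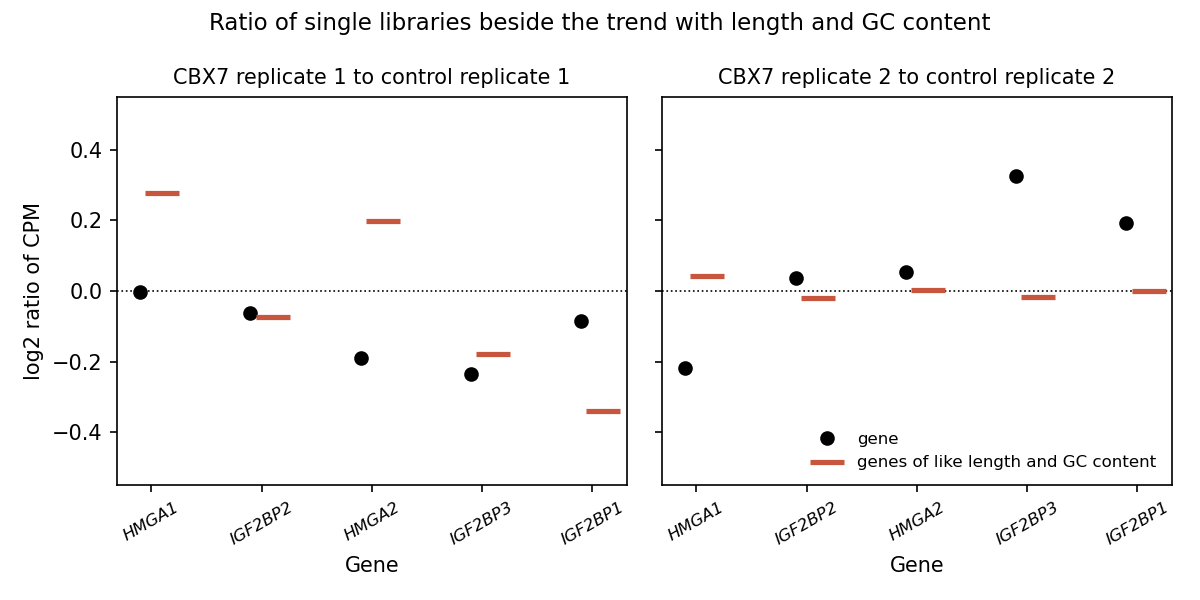
The log2 ratio of CPM between CBX7 and control libraries of replicate number 1 (left) and 2 (right) for the 5 members detected (black points), with the fitted ratio of genes of like length and GC content (red bars). In replicate 1 the trend runs from 0.28 at HMGA1 to -0.34 at IGF2BP1, and in replicate 2 it lies near 0.

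After each library was corrected for this trend, the log2 fold change was 0.22 in IGF2BP1 (standard error 0.07, 95% interval 0.05 to 0.40, unadjusted p = 0.0210, adjusted p = 0.498, edgeR) and -0.27 in HMGA1 (standard error 0.06, 95% interval -0.43 to -0.11, unadjusted p = 0.00724, adjusted p = 0.373, edgeR). Neither passed the adjusted threshold, and 7.87% of all genes tested had an unadjusted p under 0.05 in that fit. The corrected values of IGF2BP3, IGF2BP2 and HMGA2 were 0.16, 0.03 and -0.14, each with an interval that held 0. The correction of HMGA2 used its deposited length of 1788 bases and was not recomputed for the longer transcript. That of IGF2BP3 used 4274 bases, while its count per TPM implied 2264 to 3027 bases, a ratio to the deposited length that lay under the 5th percentile of single-transcript genes in 3 of 4 libraries.

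**Figure D3:**
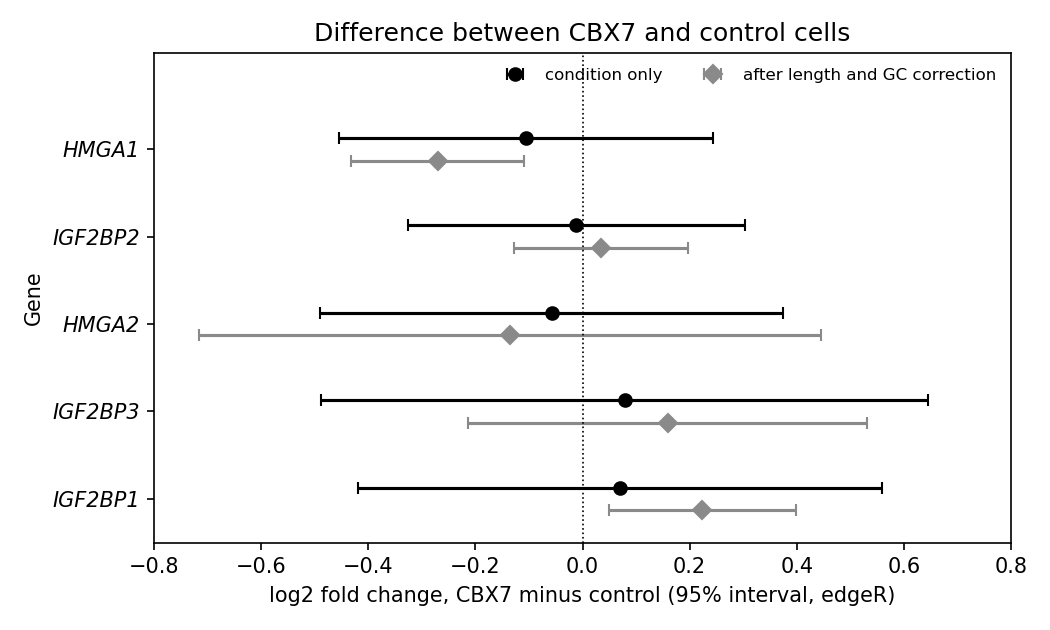
The log2 fold change of CBX7 minus control cells with its 95% interval (edgeR) for the 5 members detected, fitted on condition only (black circles) and after correction for gene length and GC content (grey diamonds). All 5 black intervals hold 0, while after the correction those of HMGA1 (-0.43 to -0.11) and IGF2BP1 (0.05 to 0.40) do not, without passing the adjusted threshold.

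The let-7 side of the pathway could be read only from host transcripts, since all 12 let-7 and miR-98 hairpin genes had 0 counts and mature microRNAs are far shorter than the fragments that the labels say were recovered for these libraries. MIRLET7BHG, the host transcript of let-7a-3 and let-7b, was at 116 and 95 counts in control cells, against 180 and 126 with CBX7. Both CBX7 libraries were higher, by 0.48 on the log2 scale (standard error 0.22, adjusted p = 0.951, edgeR). MIR99AHG, the host of let-7c, had 12 to 23.3 counts and a log2 fold change of 0.40 (standard error 0.39, adjusted p = 0.951, edgeR), and 0.52 after the correction. SPACA6, within which let-7e lies, had 0.13, and -0.07 after the length and GC correction. MIR100HG, which hosts let-7a-2, had 1693 to 1837 counts and a log2 fold change of -0.04, and 0.06 after the correction. HUWE1, which hosts let-7f-2 and miR-98 in introns, had -0.24 (standard error 0.32, adjusted p = 0.951, edgeR), with log2 ratios of -0.61 in replicate 1 and -0.01 in replicate 2 and -0.08 after the length and GC correction. WDR82, the host of let-7g, had -0.14, with -0.31 and 0.00 in the 2 ratios and -0.07 after the correction. Of the 6 fold changes 3 were above 0. No host transcript of let-7a-1, let-7d, let-7f-1 or let-7i was among those tested, so these were not read. Among the 6 host transcripts tested, 0 passed an adjusted or an unadjusted p of 0.05.

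Coding genes with a let-7 seed match had nearly the same median fold change as those without. Of the 12221 coding genes with a 3′ UTR that were tested, 1156 held at least 1 match, and their median log2 fold change was -0.04, against 0.01 in the 11065 without one. Of those with a match 40 were higher and 10 lower at an unadjusted p under 0.05 (4.33%), and of those without one 407 and 131 (4.86%). The difference in the medians was seen in the replicate 1 ratio (-0.10 against 0.02) and not in the replicate 2 ratio (0.01 against 0.00), and after the length and GC correction it was 0.02 against 0.00. Genes with a match were longer, with a median deposited length of 4515 against 2918 bases. In the 22 genes with at least 3 matches, IGF2BP1 among them, the median was -0.06 as fitted and 0.10 after the correction, which turned its direction.

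**Figure D4:**
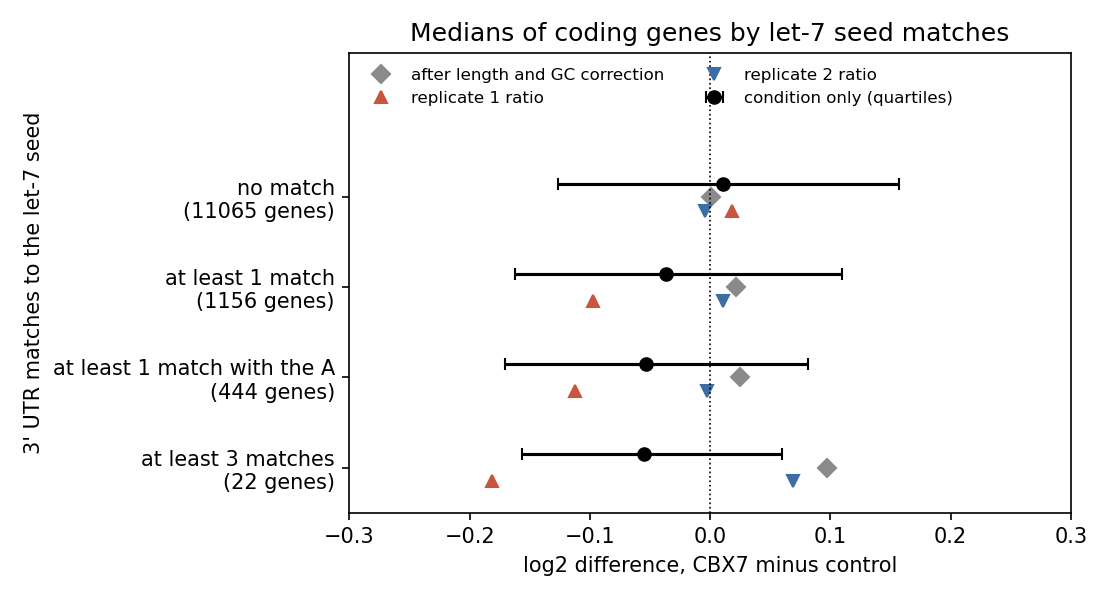
Tested coding genes grouped by 3′ UTR matches to the let-7 seed, with the median log2 fold change and quartiles of the fit on condition only (black), the median after correction for length and GC content (grey) and the median ratios of replicate 1 (red) and replicate 2 (blue). The red medians move to lower values with more matches, from 0.02 to -0.18, and the blue ones do not (0.00 to 0.07).

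Of 36 other reported let-7 targets, 32 were tested and 0 passed an adjusted or an unadjusted p of 0.05. Their median log2 fold change was -0.06 (0.01 after the correction) against 0.00 over all genes tested. Leaving out each library in turn moved the median of these targets between -0.20 and 0.05. The cell cycle transcription factor gene E2F2 had a log2 fold change of 0.44 (standard error 0.19, adjusted p = 0.951, edgeR), with 159 and 168 counts in control cells, against 220 and 242 with CBX7. IL6, an inflammatory cytokine gene, had -0.32 (standard error 0.13, adjusted p = 0.951, edgeR), with 974 and 819 against 810 and 679 counts. Other values were 0.33 in ARID3A and -0.27 in PBX3, and the abundant target CCND1 had 0.03. After the correction 0 of the 32 passed an adjusted p of 0.05, while 3 were higher and 1 lower at an unadjusted p under 0.05, against 7.87% of all genes tested. Corrected values were -0.38 in IL6 (unadjusted p = 0.00503, adjusted p = 0.331, edgeR), 0.48 in E2F2 (unadjusted p = 0.0196, adjusted p = 0.484, edgeR) and 0.36 in ARID3A (unadjusted p = 0.0130, adjusted p = 0.448, edgeR), and -0.23 in PBX3 and 0.10 in CCND1. HRAS had 0.39 as fitted but 0.67 in the replicate 1 ratio, 0.01 in the replicate 2 ratio and 0.03 after the correction.

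Of the 24 genes of microRNA processing and let-7 control, 23 were tested and 0 passed an adjusted or an unadjusted p of 0.05. Their median was -0.11, and -0.03 after the correction. With each library left out in turn it ranged from -0.21 to 0.05. TUT4, the uridylyltransferase that LIN28A recruits to let-7 precursors, was expressed at 25.6 TPM as a mean of the libraries and had a log2 fold change of -0.24 (adjusted p = 0.951, edgeR), and -0.12 after the correction. AGO4, DDX17 and TNRC6A, of the silencing complex and the Drosha step, had -0.27, -0.24 and -0.25, and -0.11, -0.15 and -0.10 after the correction. Their replicate 1 ratios were -0.38, -0.48 and -0.51 and their replicate 2 ratios -0.17, -0.07 and -0.06. The abundant HNRNPA1 and RAN had 0.04 and 0.12.

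All 20 genes of the m6A machinery and of IGF2BP partner proteins were tested, 0 passed an adjusted or an unadjusted p of 0.05, and their log2 fold changes lay between -0.21 and 0.08. ELAVL1, MATR3 and PABPC1 encode proteins that stabilise mRNAs together with the IGF2BPs, and PABPC1, at 1183 TPM, had 0.01 (standard error 0.12, adjusted p = 0.992, edgeR). YBX1, at 898 TPM, had 0.08. The m6A writer subunit VIRMA had -0.15, and -0.01 after the correction. The m6A reader YTHDF3 had -0.21, with -0.46 in the replicate 1 ratio and -0.02 in the replicate 2 ratio, and -0.19 after the correction. Its paralog YTHDF1 had 0.08, and 0.10 after the correction. ELAVL1 had 0.08, and 0.24 after the correction.

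Of 11 RNAs known to be bound by IGF2BP proteins, HMGA2 among them, 10 were tested. None passed the adjusted threshold, and 2 were higher at an unadjusted p under 0.05, as were 3.42% of all genes tested. IGF2, the growth factor gene that named the family, had 20 and 9.01 counts in control cells, against 104 and 107 with CBX7, a log2 fold change of 2.82 (standard error 0.36, adjusted p = 0.260, edgeR), and its neighbour H19 had 53 and 25 against 189 and 112 counts (1.9, standard error 0.38, adjusted p = 0.443, edgeR). After the correction they had 2.70 and 1.70. The clients that are expressed most, ACTB and CD44, had 0.06 and 0.02, and -0.04 and 0.16 after the correction. MYC had 0.18 (standard error 0.14, adjusted p = 0.951, edgeR) and 0.07 after the correction, with 2529 and 2225 counts in control cells, against 3114 and 2477 with CBX7.

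Of 16 other high mobility group genes, 13 were tested, 0 passed the adjusted threshold and 2 were higher at an unadjusted p under 0.05 (3.42% over all genes tested). HMGN5, a nucleosome-binding protein gene, had 468 and 400 counts in control cells, against 854 and 577 with CBX7 (log2 fold change 0.66, standard error 0.19, adjusted p = 0.753, edgeR), and 0.67 after the correction. TOX2 had 873 and 751 against 1268 and 1036 counts (0.45, standard error 0.14, adjusted p = 0.823, edgeR), and 0.25 after the correction. HMGN2 and HMGXB4 had 0.18 and -0.20, with replicate 2 ratios of -0.02 and 0.05 and corrected values of 0.11 and -0.12. HMGB1, at 942 TPM, had 0.06 and HMGN1, at 490 TPM, had 0.05, and 0.07 and -0.07 after the correction. HMGB1 was thus near HMGA1 in level, and neither passed the test.

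Of 17 other oncofetal and pluripotency genes, 6 had no count in any library and 7 were tested. None passed the adjusted threshold, and 3 were higher at an unadjusted p under 0.05 (3.42% over all genes tested), namely IGF2 and H19, already counted among the client RNAs, and PLAC1, a placental gene with 5 and 6 counts in control cells, against 25 and 11 with CBX7 (log2 fold change 1.62, standard error 0.57, adjusted p = 0.943, edgeR). The imprinted placental gene PEG10 and the trophoblast antigen gene TPBG, at 36.4 and 26.4 TPM the most abundant of the list, had 0.09 and -0.07, and 0.07 and 0.11 after the correction. POU5F1 had -0.44 (standard error 0.33, adjusted p = 0.951, edgeR) on 40 to 86 counts, and -0.59 after the correction. Its processed copies may share reads with it.

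For each member tested, the genes with the most similar profile were those with the smallest distance over the 4 libraries between log2 CPM values centred on the gene's mean. They were SYNM and TRAF6 for IGF2BP1 (distances of 0.0210 and 0.0347, where the median over all genes was 0.502) and STK10 and TRIM59 for IGF2BP2 (0.00641 and 0.00982). For IGF2BP3 they were the zinc finger genes ZNF681 and ZNF654 (0.0427 and 0.0457). For HMGA1 they were TICAM1 and ATF5 (0.0166 and 0.0172), and for HMGA2 SLC35A3 and ZFYVE9 (0.00715 and 0.0119). With 4 libraries and 14862 genes, near profiles are found for any gene, and no member was among the nearest of another.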

How the data were processed

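Total RNA of 2 control and 2 CBX7-overexpressing T24 libraries was extracted with Trizol and sequenced on an Illumina HiSeq instrument. The authors deposited an expected count per gene and library (88.2% to 88.9% of values are whole), a TPM value, the gene length, group means of TPM, and columns of their own comparison (a ratio, its log2, a p-value and its adjusted form), none of which was used. The submitters' processing notes name cutadapt 1.9.1, HISAT2 2.0.1, HTSeq 0.6.1, DESeq2 and hg19, but HTSeq writes whole counts, so the counter behind these values is not given in the sources used here. The files hold no coordinates. Positions and sequences are from GENCODE 29 on GRCh38, which held 96.4% of the identifiers, and mature microRNAs from RefSeq.

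Rounded counts entered edgeR 4.0.16 under R 4.3.3: filterByExpr removed low genes, TMM set the scale, and the quasi-likelihood F test (glmQLFit, glmQLFTest) was run on condition alone, with Benjamini-Hochberg adjustment over 14862 genes. Standard errors were obtained by dividing each log2 fold change by the root of its F value. The length and GC correction subtracts from each library a spline (5 degrees of freedom) on log length and on GC content. Levels between genes are compared on TPM only. Alternatives were other scalings (DESeq2's size factors, upper quartile), filters, thresholds and tests (DESeq2 1.42.0, limma 3.58.1 on log2 TPM), the replicate block, the correction and each library left out. Scripts were tested on simulated counts.

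The members and gene lists were chosen with earlier results of these data known. Named are the members, CBX7, genes overlapping or copying a member, of each list the up to 4 genes of smallest unadjusted p and the 2 of highest mean TPM, and for each member the 2 genes nearest in profile. Additional names were given as background. Of the let-7 host list, MIRLET7DHG and SPACA6P were not matched by symbol. Libraries of a group differed by more than counting noise, so none was treated as 1 library deposited again; separate preparations of 1 culture would also differ so. The correlation between deviations of same-numbered libraries was 0.31 over all genes tested and 0.61 over the 11077 whose mean count reached 100, which include the members tested, and no source says that the numbers mark a shared batch. A client RNA that this rule names is not reported here.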

Additional observations from a re-analysis of the deposited data

How the results depend on the processing

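Under every alternative with all 4 libraries, 0 members passed an adjusted p of 0.05, and the adjusted p-values of the 5 members ranged from 0.106 to 1.00. The number of genes called over the whole table was 3 as reported and depended on the setting: 265 with no filter, 1 with no filter in the newer quasi-likelihood form, 67 with DESeq2's Wald test, 5 with the length and GC correction and 1 at an adjusted p under 0.01. With the replicate block 361 genes passed, and 197 with the block and the correction together, while 0 members did. The block left the direction of every member as it was, with log2 fold changes of 0.05 for IGF2BP1, -0.01 for IGF2BP2, 0.05 for IGF2BP3, -0.11 for HMGA1 and -0.07 for HMGA2.

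The fitted values were small, and their signs turned with the setting. Every member tested had opposite signs without CBX7 replicate 1 and without CBX7 replicate 2. With limma on log2(TPM + 1) and on log2(TPM + 0.1), IGF2BP1 was -0.077 and -0.086 and IGF2BP3 was -0.16 and -0.17, where the median of all genes was itself at -0.08 and -0.10. IGF2BP2 was 0.034 after the correction, with or without the block. Leaving out each library in turn, where the remaining library of that group is assumed to vary like the other group, gave ranges of -0.18 to 0.29 for IGF2BP1, -0.064 to 0.042 for IGF2BP2, -0.27 to 0.37 for IGF2BP3, -0.23 to 0.011 for HMGA1 and -0.26 to 0.13 for HMGA2. The number of genes called then ranged from 45 to 5491 and of members from 0 to 1. The highest values came without CBX7 replicate 2, when only CBX7 replicate 1, which stood apart in its trend with length, stood for CBX7: 35.5% of genes were called, HMGA2 among them at -0.26 (adjusted p = 0.0449, edgeR). CBX7 itself stayed between 6.84 and 7.44 in all of these. The causes were not tested beyond these values. For LIN28A and LIN28B depth sets only the 0.119 to 0.144 CPM that a count of 0 allows, and 2 libraries per group limit the other members to the intervals given.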
